A study of Saccharomyces cerevisiae with 6 samples.

Results

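Heme is built from glycine and succinyl-CoA by a chain of enzymes that starts in the yeast mitochondrion, passes through the cytosol and ends in the mitochondrion, where iron is inserted into the ring. Late steps of the chain need molecular oxygen, so the heme level tells the cell how much oxygen there is. Heme activates the transcription factor Hap1, Hap1 drives respiratory genes and the repressor gene ROX1, and Rox1 keeps genes of low-oxygen growth silent while oxygen is present. The genes described here are the 8 enzymes of the pathway (HEM1, HEM2, HEM3, HEM4, HEM12, HEM13, HEM14 and HEM15) and the regulators HAP1 and ROX1, taken by their symbol in the platform annotation.

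The treated cells were Saccharomyces cerevisiae of strain S288C in rich YPD medium with 2% glucose at 25 °C, in exponential growth, given 5 mM thorium, an actinide metal, for 2 h, and their polyA RNA was labelled with Cy5. The reference on the same array was Cy3-labelled RNA of S288C cells kept for 2 h in that medium with no treatment. There were 3 hybridizations of independent biological samples, each read by the scanner with a high and a low laser setting, so 6 scans make 3 replicates, and no array had the dyes exchanged. Values are log ratios, read here as log2 of thorium over untreated; neither the base nor the direction is stated in the table, and the direction is likely from the dyes and channel order in the labels. The S288C laboratory strain is known to carry a transposon insertion in HAP1 that lowers Hap1 activity, in the treated and the untreated cells alike.

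Of the 10 genes, 9 had a probe, 1 each, among 5365 named genes with a probe. HAP1 had none in the annotation, so its RNA was not measured here. A value in all 3 replicates was present for 6 genes (HEM1, HEM2, HEM3, HEM4, HEM14 and ROX1), and HEM12, HEM13 and HEM15 had values in 2 replicates. The spots of HEM13 and HEM15 lay in array sections with few or no values in replicate 1, where 0 of 29 and 2 of 25 named probes had one. Sections are groups of probes that share a block and row in the probe number, a reading inferred from the numbers. Over the whole array 40.2% to 79.3% of probes had a value in a scan, and of the 9 heme genes with a probe 6 to 9 did.

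Replicate 1 stood apart from the others. Over 3613 genes measured in all of them, replicate 1 correlated with replicate 2 at r = 0.09 and with replicate 3 at r = 0.02, while replicates 2 and 3 correlated at r = 0.56 (Pearson, across genes, which are not independent). After the median of each array section was subtracted, these values were 0.32, 0.25 and 0.46. For the heme genes, means without replicate 1 (where all 3 replicates had values) and section-centred values stand beside the deposited ones, and for some other genes and lists they are given too.

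No heme gene passed the test. Among the 6 genes measured throughout, 0 had an adjusted p under 0.05 in limma's moderated test with Benjamini-Hochberg adjustment over all genes, against 0% of the 3613 genes tested. At an unadjusted p under 0.05 the count was again 0 of 6, where 13.8% of all genes passed. The genes nearest to the threshold were HEM4, lower in thorium, and ROX1, higher in thorium, with means in opposite directions. The 5 enzymes had 2 means above 0 and 3 below 0, beside 43.5% and 56.5% of all genes, and a median of -0.18 beside -0.09 for all genes. With only 3 replicates an exact permutation of signs cannot give a 2-sided p below 0.25, so limma's intervals are used below to show what size of change the arrays allow.

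**Figure D1:**
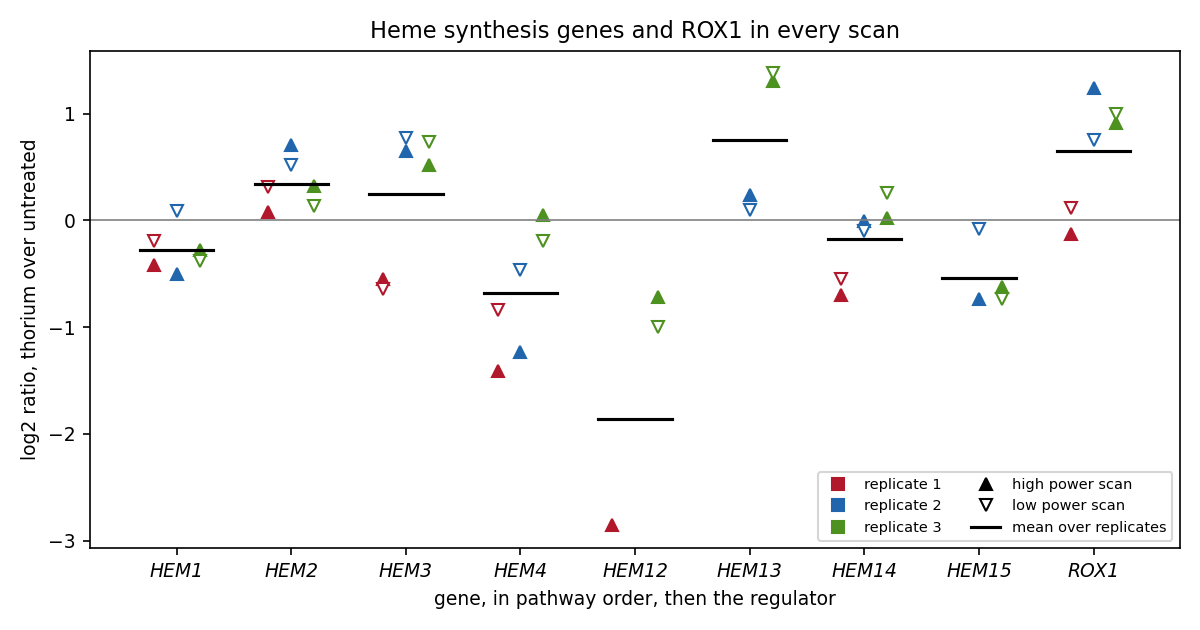
Log2 ratio (thorium over untreated, vertical axis) of each measured gene in each scan, with filled triangles for high power, open triangles for low power, colours for replicates and bars for the mean over replicates. ROX1 lies near 0 in replicate 1 and between 0.75 and 1.24 in the scans of replicates 2 and 3, and HEM12 has a single scan at -2.86 in replicate 1.

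HEM1 encodes aminolevulinate synthase, which makes the committed precursor in the mitochondrial matrix. It read -0.42 at high and -0.19 at low power in replicate 1, -0.50 and 0.09 in replicate 2, and -0.28 and -0.38 in replicate 3. All 3 replicate means lay below 0, close together, at -0.28 ± 0.07 (SD, n = 3; 95% interval -0.93 to 0.37; limma adjusted p = 0.651). That small spread did not hold against array position: the section of HEM1 had medians of -0.75 and -0.66 in replicates 2 and 3, and after section-centring HEM1 stood at 0.23 ± 0.36, with the opposite sign. Without replicate 1 its mean was -0.27.

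HEM2 encodes aminolevulinate dehydratase, which joins a pair of precursor molecules into porphobilinogen in the cytosol. It read 0.07 and 0.31 at high and low power in replicate 1, 0.70 and 0.52 in replicate 2, and 0.32 and 0.14 in replicate 3. All 6 scans were above 0, and HEM2 was the only one of the 6 genes measured throughout for which every replicate was above 0, as 15.4% of all genes were. Its mean was 0.34 ± 0.23 (SD, n = 3; interval -0.33 to 1.01; limma adjusted p = 0.595). Without replicate 1 the mean was 0.42. After section-centring it was 0.50 ± 0.17, with 0.45, 0.69 and 0.35 in replicates 1, 2 and 3 (limma adjusted p = 0.228).

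HEM3, porphobilinogen deaminase, links porphobilinogen units into a linear chain. It read -0.55 and -0.64 at high and low power in replicate 1, against 0.65 and 0.77 in replicate 2 and 0.52 and 0.74 in replicate 3. The sign thus differed between replicate 1 and the others, and the scans of each replicate lay close together. Its mean was 0.25 ± 0.73 (SD, n = 3; limma adjusted p = 0.776) and 0.67 without replicate 1 (limma adjusted p = 0.188). In replicate 2 the median of its section was 0.63, and section-centred HEM3 there read 0.14. The section-centred mean was 0.042 ± 0.57 (limma adjusted p = 0.947).

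HEM4, uroporphyrinogen III synthase, closes that chain into the ring that heme and siroheme share. It had the lowest mean of the 6 genes measured throughout, at -0.68 ± 0.54 (SD, n = 3; interval -1.45 to 0.09; limma adjusted p = 0.387). It read -1.41 and -0.84 at high and low power in replicate 1, -1.23 and -0.46 in replicate 2, and 0.05 and -0.20 in replicate 3. The ratio lay further from 0 in the high than in the low power scan in replicates 1 and 2, by -0.57 and -0.77, and not in replicate 3, where high minus low was 0.25. HEM1 and HEM4 were below 0 in every replicate, as 23.2% of all genes were. Without replicate 1 the mean of HEM4 was -0.46. Section-centred, it stood at -0.38 ± 0.33, with replicate 3 at 0.00.

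HEM12, uroporphyrinogen decarboxylase, acts at the point where the heme branch leaves that of siroheme. It had a value of -2.86 in the high power scan of replicate 1 only, none in replicate 2, and -0.72 and -0.999 in the scans of replicate 3. The 2 replicates gave a mean of -1.86 ± 1.41 (SD, n = 2). In a fit over the 4956 genes with at least 2 replicates, which treats the missing replicate as absent, its limma adjusted p was 0.270 and its unadjusted p 0.0195, in a fit where 15.2% of all genes had an unadjusted p under 0.05. The size of this mean rests on 1 scan, and replicate 3 alone gave -0.86. Section-centred, the mean was -1.42 ± 1.33.

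HEM13, coproporphyrinogen oxidase, is the oxygen-consuming step of the cytosol, and its gene is a known target of repression by Rox1. It read 0.23 and 0.09 at high and low power in replicate 2 and 1.31 and 1.38 in replicate 3, with no value in replicate 1. The replicates thus differed by more than either did between scans, and the mean was 0.75 ± 0.83 (SD, n = 2; limma adjusted p = 0.439 in the fit over genes with at least 2 replicates). In replicate 3 the median of its section was 0.85, and section-centred values were 0.09 and 0.45. HEM12 and HEM13 are near neighbours on the same chromosome, with 2 annotated genes between them in the R64 gene table. In replicate 3, where both were measured, they read -0.86 and 1.34, and -0.49 and 0.45 after section-centring.

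The last steps return to the mitochondrion. HEM14, protoporphyrinogen oxidase, read -0.70 and -0.55 at high and low power in replicate 1, -0.01 and -0.10 in replicate 2, and 0.02 and 0.26 in replicate 3. Its mean was -0.18 ± 0.40 (SD, n = 3; interval -0.89 to 0.54; limma adjusted p = 0.807), and 0.043 without replicate 1, so that its sign depends on that array. Section-centred, it was -0.16 ± 0.25. HEM15, ferrochelatase, which inserts the iron, read -0.74 and -0.08 at high and low power in replicate 2 and -0.63 and -0.74 in replicate 3. It averaged -0.54 ± 0.19 (SD, n = 2; limma adjusted p = 0.489 in the fit over genes with at least 2 replicates), in a section with medians of -0.78 and -0.62 in these replicates, and section-centred it read 0.36 and -0.07.

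ROX1 encodes the HMG-box repressor of hypoxic genes, is itself activated by Hap1 and also represses its own gene. It read -0.13 and 0.12 at high and low power in replicate 1, 1.24 and 0.75 in replicate 2, and 0.91 and 0.99 in replicate 3. Replicate 1 sat at 0, and the other 2 replicates lay close to each other near a 2-fold ratio. The mean was 0.65 ± 0.57 (SD, n = 3; interval -0.13 to 1.43; limma adjusted p = 0.412), at percentile 90.5 of all genes. Without replicate 1 it was 0.98, with a limma adjusted p of 0.0940, the smallest adjusted p of any heme gene under the settings run. The section of ROX1 had medians of 0.94 and 0.49 in replicates 2 and 3 and -0.46 in replicate 1. After section-centring ROX1 read 0.49, 0.09 and 0.50 in replicates 1, 2 and 3, all above 0, with a mean of 0.36 ± 0.24 (limma adjusted p = 0.353).

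**Figure D2:**
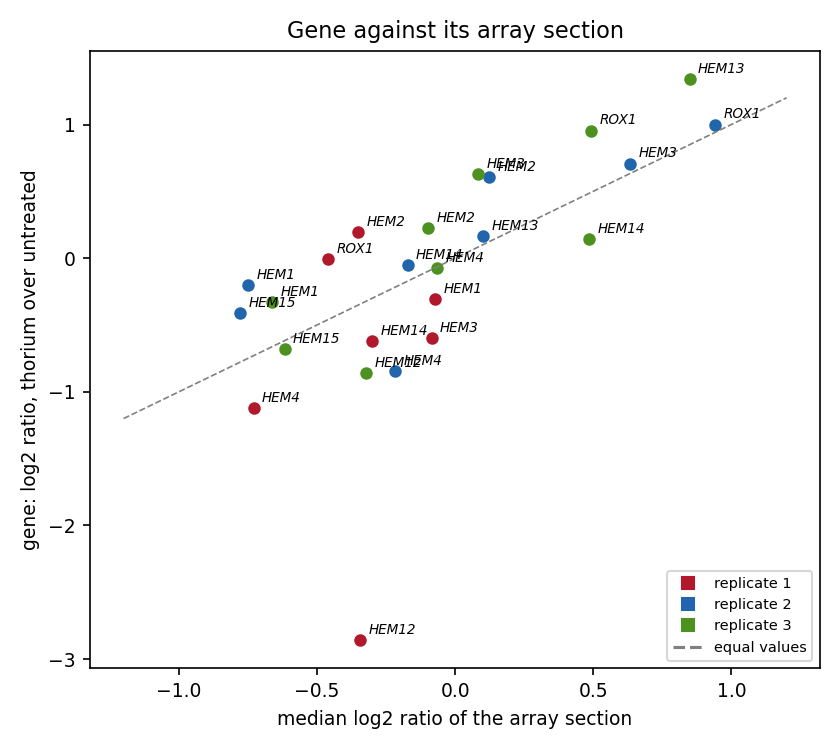
Log2 ratio (thorium over untreated) of each gene in each replicate, on the vertical axis, against the median log2 ratio of the named probes in its array section, on the horizontal axis, with colours for replicates and a dashed line of equal values. The high values of HEM13 (1.34, replicate 3) and ROX1 (1.00, replicate 2) lie in sections with medians of 0.85 and 0.94, and HEM12 (-2.86, replicate 1) lies far below its section.

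The plot of genes against their sections holds 24 values of 9 genes, and they correlated at r = 0.66 (Spearman's rho 0.73). Values of an array share its hybridization, each gene gives up to 3 of them, and a section's median includes the gene itself, so this is a description only. Its part in the ratios of the heme genes was not tested beyond the section-centred values given. Laser power was tested as the difference of the scans within each replicate. Of 2108 genes with both scans in all replicates, 2 differed between high and low power (0.0949%, limma adjusted p under 0.05), and 0 of the 6 heme genes did, the smallest unadjusted p among them being 0.177, for HEM4. This fit gave all 6 heme genes the same standard error, 0.27, so their p-values do not reflect each gene's own spread over replicates.

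With replicates 2 and 3 alone, 4790 genes could be tested and 77 passed (1.61%), with 0 of the 8 heme genes among them. The enzymes then had 3 of 7 above 0 in both replicates (HEM2, HEM3 and HEM13), where 32.3% of all genes were, and 3 of 7 below 0 in both (HEM1, HEM4 and HEM15), where 39.2% were. Their median was 0.043, beside -0.062 for all genes. The seventh, HEM14, read -0.05 and 0.14. Section-centred in replicates 2 and 3, HEM1 read 0.46 and 0.41, HEM4 -0.60 and 0.001, and HEM15 0.36 and -0.07. HEM2, HEM3 and HEM13 stayed above 0 in both after centring, and HEM14 read 0.13 and -0.33.

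Of 10 listed genes that Hap1 is known to activate, 7 had values in all replicates, and 6 of these had a mean above 0, beside 43.5% of all genes. Their median was 0.69, beside -0.09 for all genes, and it was 0.20, 0.83 and 0.57 in replicates 1, 2 and 3. The list holds ROX1 itself, and SOD2 and CTT1 were known from earlier results to be high. Adjusted over all genes, 0 of the 7 passed, and 2 had an unadjusted p under 0.05 as higher (SOD2 and CTT1), which 5.7% of all genes had. Above 0 in every replicate were 4 of 7, beside 15.4% of all genes. SOD2, the mitochondrial superoxide dismutase, read 1.36, 2.14 and 1.96 in replicates 1, 2 and 3 (1.82 ± 0.41, SD, n = 3; limma adjusted p = 0.271). That adjusted p equals the smallest among the 3613 genes measured in all replicates, a value that SOD2 shares with other genes. CTT1, the cytosolic catalase and itself a heme protein, read 0.84, 1.89 and 0.57 (limma adjusted p = 0.299).

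Other Hap1-activated genes include electron carriers. CYT1, cytochrome c1, read 0.19, 0.83 and 1.05, and NCP1, the reductase that serves cytochrome P450 enzymes, read 0.20, 0.56 and 0.07. CYC1, the main cytochrome c, read 2.29 in replicate 1, against 0.29 and -0.01 in replicates 2 and 3, so its mean of 0.85 ± 1.25 (SD, n = 3) rests on replicate 1. YHB1, a flavohemoglobin that detoxifies nitric oxide, was the exception, below 0 in every replicate at -0.48 ± 0.36. CYC7, CYB2 and HMG1, measured in replicates 2 and 3 only, were above 0 in both, at means of 1.60, 0.64 and 0.69.

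Section-centring left the Hap1-activated median at 0.69, and 6 of the 7 genes were then above 0 in every replicate, where 21.1% of all genes were. These 6 include ROX1, and SOD2 and CTT1, known beforehand to be high, so the count is a description only. The replicates also drew together for some of the 7 genes. CYC1 read 0.68, 1.06 and 0.88 after centring (0.88 ± 0.19, SD, n = 3; limma adjusted p = 0.146), and CTT1 1.13, 1.32 and 0.84 (limma adjusted p = 0.130). SOD2 stood at 1.61 ± 0.30 (limma adjusted p = 0.124) and NCP1 at 0.69 ± 0.14 (limma adjusted p = 0.157), while YHB1 stood at -0.03. Of the 5 heme enzymes, 1 (HEM2) was above 0 in every replicate after centring and 0 were below 0 in every replicate, where 23.7% of all genes were. None of these values passed the threshold.

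**Figure D3:**
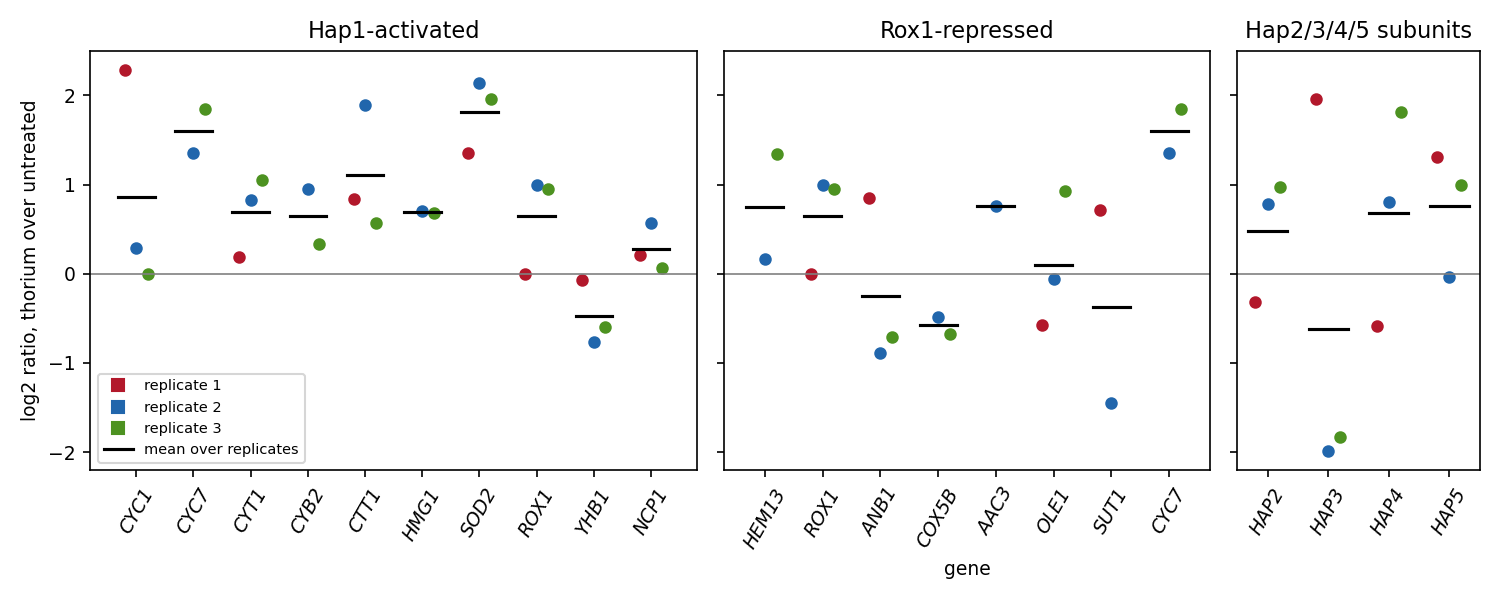
Log2 ratio (thorium over untreated, vertical axis) in each replicate, with bars for the mean over replicates, of genes that Hap1 activates (left), genes that Rox1 represses (middle) and subunits of the Hap2, Hap3, Hap4 and Hap5 complex (right). SOD2 is above 1.3 in all replicates, the Rox1-repressed genes lie on each side of 0, and HAP3 is at 1.96 in replicate 1 and below -1.8 in the others.

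Of 9 listed genes known to be repressed by Rox1, 8 had a probe and 3 were measured in all replicates, ROX1 among them, 2 with a mean above 0. No gene of this list or of those that follow passed limma's test over all genes, and an unadjusted p under 0.05 was had by CTT1, IRC21 and SRO9 alone among those measured in all replicates, beside 13.8% of all genes. In the fit over genes with at least 2 replicates, CYC7 (unadjusted p = 0.00690), PET9 (0.0134) and HYP2 (0.0380) also had one, with limma adjusted p of 0.262, 0.270 and 0.310. OLE1, the fatty acid desaturase, read -0.57, -0.06 and 0.93 in replicates 1, 2 and 3, and ANB1, the hypoxic form of translation factor eIF5A, read 0.85, -0.89 and -0.71. In replicates 2 and 3 CYC7, the hypoxic form of cytochrome c, was at 1.35 and 1.84 and COX5B, the hypoxic form of a cytochrome oxidase subunit, at -0.48 and -0.68. AAC3, the hypoxic ADP/ATP carrier, had a value in replicate 2 only, at 0.76, and SUT1, a regulator of sterol uptake, read 0.71 in replicate 1 and -1.45 in replicate 2. Section-centred, COX5B turned to 0.20 and 0.18, CYC7 read 1.28 and 0.95, and ANB1 read 0.23, -0.22 and 0.07. OLE1 read 0.09, -0.64 and 0.54 after centring, SUT1 0.72 and -0.59, and AAC3 0.66.

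Yeast keeps hypoxic and aerobic forms of several of these proteins, and their ratios within an array can be set side by side. CYC7 minus CYC1 was 1.07 and 1.85 on the log2 scale in replicates 2 and 3, and 0.21 and 0.072 after section-centring. COX5B minus COX5A was 0.38 and -0.46 in the same replicates, and 0.70 and 0.35 section-centred, with COX5A at -0.53 ± 0.32 and below 0 in all 3. ANB1 minus its aerobic partner HYP2 was 0.13 and 0.24, and 0.013 and 0.18 section-centred. AAC3 minus PET9, the main carrier, was -0.69 in replicate 2, and -0.62 section-centred. Section-centring thus shrank the difference for CYC7 and CYC1 and turned 1 of the values for COX5B and COX5A. No test was made, each pair has similar sequences whose probes may share signal, and for HMG1 the partner HMG2 had no probe in the annotation.

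The Hap2, Hap3, Hap4 and Hap5 complex binds CCAAT boxes in respiratory genes, and HEM1 is among its known targets. All 4 subunit genes were measured, 3 with a mean above 0, and 0 had the same sign in every replicate. Their median was 0.58, 0.24 after section-centring and 0.17 without replicate 3. HAP4, the glucose-repressed activating subunit, read -0.58, 0.81 and 1.81 in replicates 1, 2 and 3. HAP2 read -0.32, 0.78 and 0.97, and HAP5 1.31, -0.03 and 1.00. Section-centred, HAP5 was above 0 in every replicate, at 0.83, 0.27 and 1.44 (limma adjusted p = 0.187). HAP4 then read -0.09, -0.11 and 1.36, and HAP2 0.06, -0.15 and 0.37. HAP3 read 1.96, -1.99 and -1.83, a spread of 2.24 (SD, n = 3) against a median SD of 0.52 over all genes, and 0.37, -0.94 and -1.11 after section-centring.

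Other regulators of oxygen and sterol response gave 6 genes measured throughout of 10 with a probe, with a median of 0.20. Without replicate 1 that median was 0.013, without replicate 3 it was 0.052, and over genes in at least 2 replicates it was -0.022. After section-centring it was 0.28, with 6 of 6 means above 0, beside 1704 of 3613 for all genes. TUP1, the corepressor that Rox1 recruits, was above 0 in every replicate at 0.09, 0.72 and 1.58 (0.80 ± 0.75, SD, n = 3; limma adjusted p = 0.374), while its partner CYC8 read 0.40, -0.74 and -0.40. MGA2 and SUT2, which encode regulators of the desaturase gene and of sterol uptake, were above 0 in every replicate at 0.49 ± 0.36 and 0.39 ± 0.21, and MGA2 was at 0.07 after section-centring. SPT23, a paralog of MGA2, was at -0.11 ± 0.41, and ECM22, a sterol regulator, at 0.00 ± 0.10. The section-centred means of CYC8, SPT23 and ECM22 were 0.16, 0.23 and 0.33.

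Proteins that bind Hap1 and hold it inactive or help to activate it were measured for 5 of 6 listed genes. SRO9, an RNA-binding protein found in the Hap1 complex, was above 0 in every replicate at 0.60, 0.73 and 1.13 (0.82 ± 0.27, SD, n = 3; limma adjusted p = 0.303; unadjusted p = 0.0250). The Hsp90 gene HSC82 was below 0 in every replicate at -0.71 ± 0.43, and HSP82, SSA2 and YDJ1 were at -0.25 ± 0.69, -0.11 ± 0.35 and 0.11 ± 0.51. The median of the 5 genes was -0.11, and -0.21 after section-centring. Only 1 of the 5 section-centred means was above 0, beside 1704 of 3613 for all genes. It was that of SRO9, at 0.72 ± 0.07, while YDJ1 turned to -0.21. The Hsp90 genes are near-identical, and their probes may share signal.

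Of 15 listed genes that supply heme synthesis or handle its product, 8 were measured throughout, 3 with a mean above 0 and 5 below, with a median of -0.07. With replicates 2 and 3 alone 13 genes had values and the median was 0.36, on the other side of 0. On the supply side, HEM25, the mitochondrial glycine carrier, read 0.21, -0.86 and -0.73 in replicates 1, 2 and 3, and MRS3, a mitochondrial iron carrier, was below 0 in every replicate at -0.49, -1.26 and -0.45 (-0.73 ± 0.46, SD, n = 3; limma adjusted p = 0.361). Section-centred, MRS3 stood at -0.17. ARH1, the adrenodoxin reductase homolog used in making heme A, was at -0.14 ± 0.28.

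On the side of heme use, COX10 and COX15, which convert heme to the form used by cytochrome oxidase, read -0.24, 1.55 and 0.70, and -0.69, 0.72 and 0.50, below 0 in replicate 1 alone, and stood at means of 0.13 and -0.053 after section-centring. CYT2, which attaches heme to cytochrome c1, was at -0.01 ± 0.28. DAP1, a heme-binding partner of sterol demethylase, read -2.66, -1.04 and 0.50 (-1.07 ± 1.58, SD, n = 3; limma adjusted p = 0.443). Section-centred, DAP1 was below 0 in every replicate, at -1.68, -1.002 and -0.43 (-1.04 ± 0.63; limma adjusted p = 0.154). HMX1, the heme oxygenase that breaks heme down, read -0.64, 0.68 and 1.08, and the sign of its ratio in replicate 1 was again opposite to that in replicates 2 and 3.

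Among 18 genes for heme-containing or heme-related proteins, 12 were measured throughout, 9 with a mean above 0 (43.5% of all genes) and a median of 0.20. That median was 0.38 without replicate 1, 0.37 without replicate 3 and 0.10 in the low power scans alone. The 3 highest means were those of CTT1, CYC1 and IRC21, the last a putative cytochrome b5-type protein at 0.80, 1.33 and 0.37 in replicates 1, 2 and 3 (limma adjusted p = 0.326). The 3 lowest were those of ERG5, a sterol desaturase of the cytochrome P450 family, at 0.79, -1.31 and -1.14, YHB1, and SDH3, a membrane subunit of succinate dehydrogenase, at -0.36 ± 0.29. CYB5, CCP1 and SDH4 stood between these at 0.44 ± 0.51, 0.30 ± 0.18 and 0.10 ± 0.62. Of the 12, 4 were above 0 and 2 below 0 in every replicate, beside 15.4% and 23.2% of all genes. Section-centred, ERG5 was below 0 in every replicate, at -1.06, -0.48 and -0.21 (limma adjusted p = 0.240). YHB1 and SDH3 then stood at means of -0.03 and -0.08.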

How the data were processed

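RNA of thorium-treated (Cy5) and untreated (Cy3) yeast was compared on 3 two-colour arrays, each scanned at 2 laser powers. Per the labels, the authors applied a LOWESS normalization to spots with a flag of 0 and merged scans in GeneSpring; the deposited table holds a log ratio for each spot and scan, read here as log2, with base and direction not stated. The sources used here name no scanner, background step or version. Scan medians lay between -0.16 and 0.01; LOWESS removes any shift common to most genes, and the number of arrays limits precision. Signal intensities were not used here.

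Of 6912 probes 5513 carried 1 gene symbol, 0 several and 1399 none, and 5360 of 5365 genes matched the R64 table by Entrez ID. Probes of a gene were averaged, then scans of a replicate, and genes with 3 replicate values were tested against 0 with limma 3.58.1 (lmFit, eBayes) in R 4.3.3 as a 2-sided test, adjusted by Benjamini-Hochberg over all genes and a threshold of 0.05, on 2 residual and 4.43 prior degrees of freedom. The fit was run on simulated data to check its mean estimates. The simulated noise was independent, with no array sections and no replicate that stands apart, so it does not show the error rate on these arrays. For section-centring, a section's median in a scan was taken off its probes where at least 5 genes had values.

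The members, gene lists and alternatives were chosen with earlier results of these data known. All members were named; of other lists, every gene measured where at most 8 were, otherwise the 3 highest and 3 lowest means. CYC7, CYB2, HMG1, COX5B, HYP2, PET9, AAC3, SUT1, CYB5, CCP1 and SDH4, partly measured or of middle rank, were added after their values were seen. So was COX5A, which had values in all 3 replicates and fell under the rule. No sequences or coordinates are given.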

Additional observations from a re-analysis of the deposited data

How the results depend on the processing

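The number of genes past the threshold was 0 under every alternative that kept all 3 replicates (each scan power alone, all 6 scans with a replicate block, median, quantile and section-centring, array weights, a robust prior, a filter of 2 replicates or of both scans throughout, the median over probes, and an adjusted p under 0.10). Leaving out a replicate gave 0 to 77, the 77 without replicate 1. An unadjusted p under 0.05 gave 499 genes and a 2-fold mean change with no test gave 235. The number of heme genes past the threshold was 0 in each of these fits. At an unadjusted p under 0.05 in limma it was 0 or 1 in each, where 191 to 1384 of all genes passed. The 1 was ROX1 in the low power scans (0.0493), with array weights (0.0134) and without replicate 1 (0.0119). It was HEM2 after section-centring (0.0354), and HEM12 with the filter of 2 replicates (0.0195) and without replicate 2. With all 6 scans and a replicate block, ROX1 stood at 0.65 (limma adjusted p = 0.292); replicates pair only the scans of 1 array, and the block changed no call. Over 90 values of the 6 genes under alternatives, 88 kept their direction, a count that is partly fixed in advance. The replicate block, the filters on replicates and scans, the robust prior, the median over probes and the sign permutation left these means unchanged by construction. HEM1 turned to 0.23 after section-centring, and HEM14 ranged from -0.34 to 0.043 when replicates were left out, above 0 without replicate 1; the cause was not tested. The median of the enzymes, -0.18 in the main fit, lay between -0.28 and 0.043 in fits that held 5 to 8 enzymes. It was above 0 after section-centring (0.042) and without replicate 1 (0.043). Each shift was smaller than the SD of its replicate medians, 0.38, but that spread is wide, so this is a weak check.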
